A study of Mus musculus with 6 samples.

Results

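The insulin-like growth factor system was examined in whole sciatic nerve RNA from wild-type and Plekhg5-deficient mice. Its 10 genes were taken by symbol from the 39174 genes in the tables: the ligands Igf1 and Igf2, the receptors Igf1r and Igf2r, and the binding proteins Igfbp2, Igfbp3, Igfbp4, Igfbp5, Igfbp6 and Igfbp7. Each symbol matched 1 gene, and all 10 were expressed above the limit for testing (0.1 FPKM, averaged over 1 genotype or the other). Sciatic nerves of 3 wild-type animals (numbered 2, 4 and 5 in the labels) and 3 Plekhg5-deficient animals (numbered 2, 3 and 5) were compared. All were adults with no treatment named, and 12 months is the age in the text. The mutant animals lack Plekhg5, a guanine nucleotide exchange factor known to activate NF-κB. How the allele was made, the sex and the genetic background are not stated in the sources used here. Levels are given in FPKM (fragments per kilobase of transcript, relative to all fragments of the library), divided by a scaling factor for each library unless stated otherwise. Plekhg5-deficient nerves are also called mutant nerves.

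Igf1 and Igf2 are secreted growth factors that act through the receptor tyrosine kinase Igf1r, which signals through insulin receptor substrates, PI3-kinase and Akt. Igf2r, the cation-independent mannose 6-phosphate receptor, carries lysosomal enzymes to the lysosome and removes extracellular Igf2 by uptake. The binding proteins hold the ligands in the extracellular space, lengthen their lifetime or keep them from the receptor, and are released by proteases. In peripheral nerve, Igf1 is known as a survival factor of Schwann cells and a promoter of axon growth and myelination.

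The disrupted gene was first checked in every library. Plekhg5 had 3.65, 4.13 and 5.26 FPKM in nerves 2, 4 and 5 of wild-type animals, and 0.141, 0.140 and 0.0521 FPKM in nerves 2, 3 and 5 of mutants, as the labels say. The myelin gene Pmp22, used here as 1 of the markers of Schwann cells, was at 4252.6 FPKM or more in every library. Both libraries numbered 5 stood apart. Plekhg5-deficient nerve 5 had 229900 summed FPKM of 7 erythroid genes, led by Hba-a1 and Hba-a2, against 3975 to 24290 in the other 5 libraries, and 55810 of 13 skeletal muscle genes, led by Tnni2 and Acta1, against 314.4 to 21470. Wild-type nerve 5 had 184.1 summed FPKM of 10 T and B lymphocyte genes, led by Cd79b and Cd79a, against 3.36 to 8.53 in the others. Sequencing depth per library is not stated in those sources, so the precision of each value is taken from the 95% interval that Cufflinks reported.

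The binding proteins differed most in level, and their promoters are shown for the least abundant of them, Igfbp2, and for the 4 most abundant. Igfbp2 and Igfbp5 are also neighbours on chromosome 1, on opposite strands, with their 3′ ends 5457 bases apart. The sequences are the 100 bases before the RefSeq transcription start (GRCm38.p6), 5′ to 3′ on the gene's strand, with TATAAA and GGGCGG on either strand in capitals. They lie at chr1:72824380-72824479 (plus strand), chr11:99041144-99041243 (plus strand), chr1:72874866-72874965 (minus strand), chr15:102144086-102144185 (plus strand) and chr5:77408046-77408145 (minus strand).
Igfbp2: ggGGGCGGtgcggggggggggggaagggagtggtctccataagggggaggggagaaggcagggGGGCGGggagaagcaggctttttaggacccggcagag
Igfbp4: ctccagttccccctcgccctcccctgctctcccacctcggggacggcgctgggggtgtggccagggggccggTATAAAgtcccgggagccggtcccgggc
Igfbp5: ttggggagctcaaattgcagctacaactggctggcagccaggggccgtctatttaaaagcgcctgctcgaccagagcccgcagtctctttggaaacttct
Igfbp6: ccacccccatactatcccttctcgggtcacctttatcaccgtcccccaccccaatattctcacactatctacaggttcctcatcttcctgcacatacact
Igfbp7: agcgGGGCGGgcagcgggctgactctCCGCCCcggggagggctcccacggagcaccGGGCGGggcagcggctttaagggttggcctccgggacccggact
Igfbp4 has TATAAA 28 bases before its start, Igfbp2 and Igfbp7 have GGGCGG, and Igfbp5 and Igfbp6 have neither within these 100 bases. Over the whole window of 300 bases (250 before to 50 after the start), TATAAA was found for 2 of the 10 genes (Igfbp4 and Igfbp6) and in 13.6% of all 32851 windows. GGGCGG was found for 4 of the 10 (Igf1r, Igf2r, Igfbp2 and Igfbp7) and in 35.7% of all windows, and CCAAT for 2 of the 10 (Igf1 and Igfbp6) and in 37.4%. The NF-κB motif, searched because Plekhg5 is known to activate this factor, was found in the window of Igfbp5 alone, and in 8.46% of all windows. All searches covered both strands, and a match describes the letters in the window, not a site in use. Igf2 has 4 RefSeq windows and Igfbp2 has 2, and for each only the window nearest the 5′ end of the gene was searched. The GC content of the windows lay between 49.7% (Igfbp6) and 76% (Igf1r), against a median of 52.7% over all windows. The RefSeq start used for Igfbp6 lies 176 bases from the 5′ end of the gene in the authors' tables, that for Igf1r 602 bases and that for Igf1 2846 bases, so these windows may not be those of the transcripts measured.

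Igfbp4, Igfbp5, Igfbp6 and Igfbp7 were the most abundant transcripts of the system, and Igfbp2 and both receptors the least. Averaged over the 6 libraries, Igfbp6 was at 324.3 FPKM, Igfbp7 at 284.9, Igfbp5 at 227 and Igfbp4 at 165.0, all within the top 2.55% of the 21285 genes tested. Igf1 followed at 60.6 FPKM (top 7.12%), Igf2 at 22.5 (top 16.8%) and Igfbp3 at 10.6 (top 29.4%). The receptors Igf1r and Igf2r, at 1.80 and 1.66 FPKM, and Igfbp2, at 1.26 FPKM, ranked lower (top 62.5%, 63.6% and 67.4%). From Igfbp7 down to Igf1r, each gene was above the next in 6 of 6 libraries. The order was not fixed at either end: Igfbp6 was above Igfbp7 in 4 of 6 libraries (mean log2 ratio 0.148 ± 0.297, SD), Igf1r above Igf2r in 4 of 6 (0.117 ± 0.915) and Igf2r above Igfbp2 in 2 of 6 (0.654 ± 1.48).

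**Figure D1:**
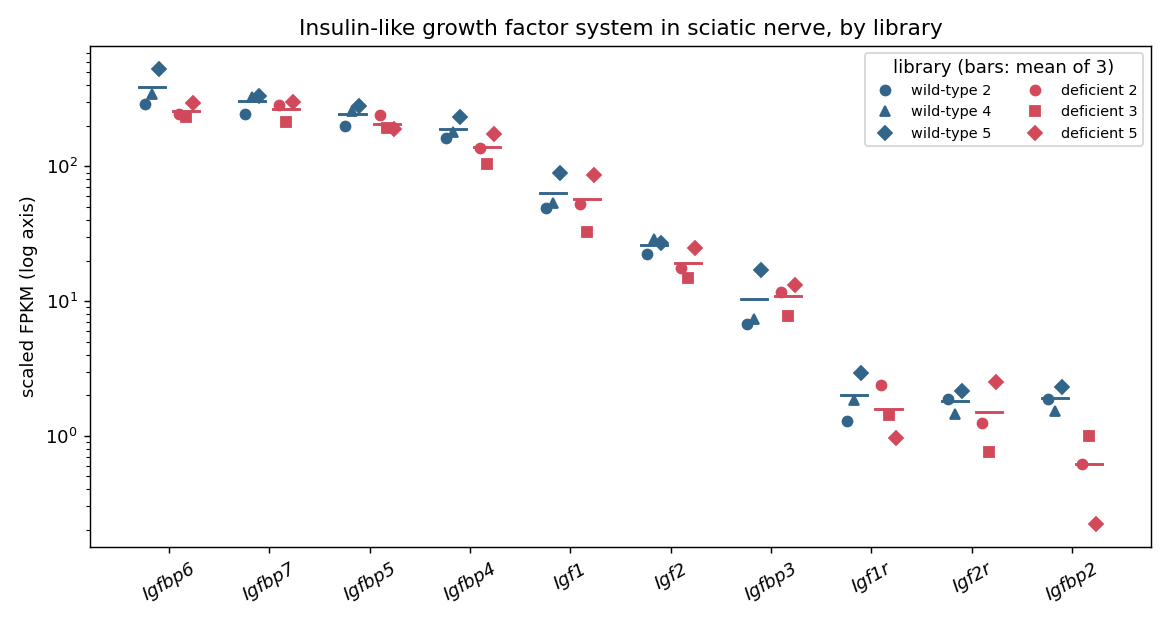
Scaled FPKM (log axis) of the 10 genes in each of 3 wild-type (blue) and 3 Plekhg5-deficient (red) sciatic nerves, in order of mean level, with bars at the mean of 3. Igfbp2 is the gene for which all wild-type nerves (1.52 to 2.30 FPKM) sit above all Plekhg5-deficient nerves (0.220 to 1.005 FPKM).

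Between genotypes, none of the 10 genes passed the test over all genes (limma, adjusted p from 0.739 for Igfbp2 to 0.990 for Igfbp3), where 0.0376% of all genes (8 of 21285) passed. At an unadjusted p under 0.05, 1 of the 10 was lower (Igfbp2) and 0 were higher, against 5.11% of all genes in either direction. Igfbp2 was also the only one with no overlap between the genotypes, on the side where 5.88% of all genes were lower without overlap. None of the 10 was higher without overlap, against 5.69% of all genes. The log2 difference was below 0 for 9 of the 10 genes, with a median of -0.23, against 48.9% of all genes and a median of 0.0065. These log2 differences are of log2(FPKM + 1), Plekhg5-deficient minus wild-type, a scale that understates the change of low genes. The FPKM as deposited, without scaling, gave 10 of 10 below 0 with a median of -0.094 over all genes, and then 4 genes (Igf2, Igfbp2, Igfbp4 and Igfbp6) did not overlap between genotypes, all 4 on the lower side, where that scaling gave 8.66% of all genes. Their adjusted p, as for all 10, was at least 0.817. Scaling raised the values of Plekhg5-deficient nerve 5 the most, since its factor was 0.745, against 0.991 to 1.12 for the other libraries. In bulk RNA, fewer cells of a type and less RNA per cell cannot be told apart. For any single gene, the smallest two-sided p that exact permutation of 3 against 3 libraries allows is 0.1.

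**Figure D2:**
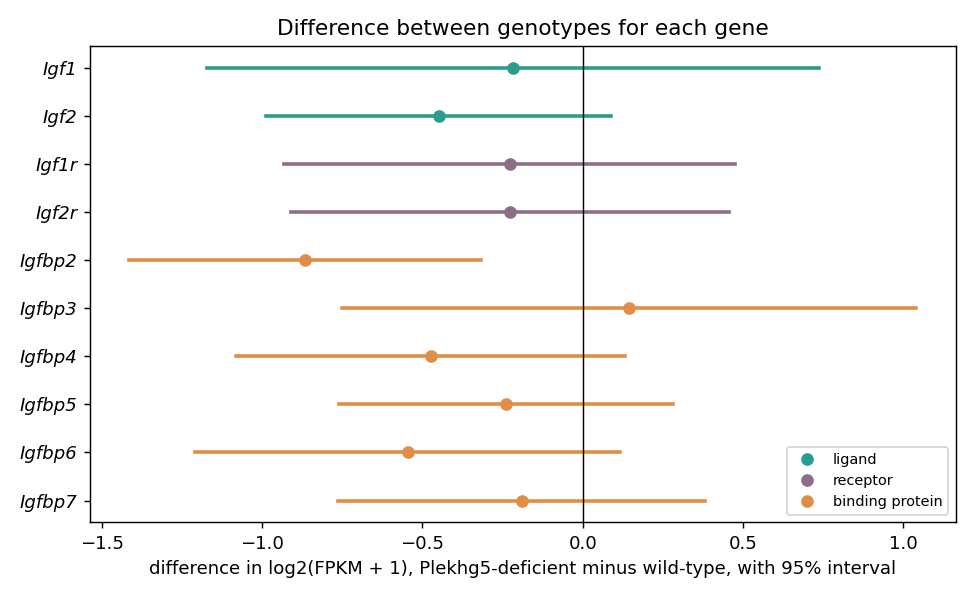
Difference in log2(FPKM + 1) between Plekhg5-deficient and wild-type nerves for each of the 10 genes, as points with 95% intervals from the limma fit, coloured by role. The interval of Igfbp2 (-1.41 to -0.32) lies below 0, and those of the other 9 genes include 0.

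Igf1 (GRCm38 chromosome 10, 87858265 to 87937042, plus strand) had 49.3, 53.2 and 89.4 FPKM in nerves 2, 4 and 5 of wild-type animals, and 52.8, 32.4 and 86.5 FPKM in nerves 2, 3 and 5 of mutants. The libraries numbered 5 were the highest of each genotype, at nearly the same level, and the lowest value was in Plekhg5-deficient nerve 3. Means were 64.0 ± 22.1 and 57.2 ± 27.3 FPKM (SD, n = 3), and the log2 difference was -0.22 (95% interval -1.17 to 0.74, adjusted p = 0.983 from limma). The difference was above 0 without wild-type nerve 5 (0.037) and without Plekhg5-deficient nerve 3 (0.13). The summed macrophage markers were also highest in the libraries numbered 5, as were 7 of the 10 markers taken singly. Summed over the 10 of 11 markers found in the tables, led by Lyz2 and C1qb, they were at 712.8 and 771.0 FPKM in the libraries numbered 5 and between 309.0 and 376.8 in the other 4, with no marker at 0 in any library. By genotype their ranges were 309.0 to 712.8 in wild-type and 318.1 to 771.0 in Plekhg5-deficient nerves. The summed markers of endothelium (284.4 and 367.3 against at most 249.3 FPKM), smooth muscle and pericytes (1880 and 1052 against at most 690.9), adipocytes (3176 and 6813 against at most 2616), erythroid cells (24290 and 229900 against at most 12470) and T and B lymphocytes (184.1 and 8.53 against at most 5.52) were highest in these libraries too. Taken singly, 6 of 11 endothelial, 5 of 9 smooth muscle and pericyte and 2 of 8 adipocyte markers were highest in both libraries numbered 5. So were 7 of 7 erythroid and 5 of 10 T and B lymphocyte markers. The part of any of these cell types in the level of Igf1 was not tested. The antisense gene Gm16176 shares 5117 bases with Igf1 on the opposite strand and was at 0.617 FPKM or less.

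**Figure D3:**
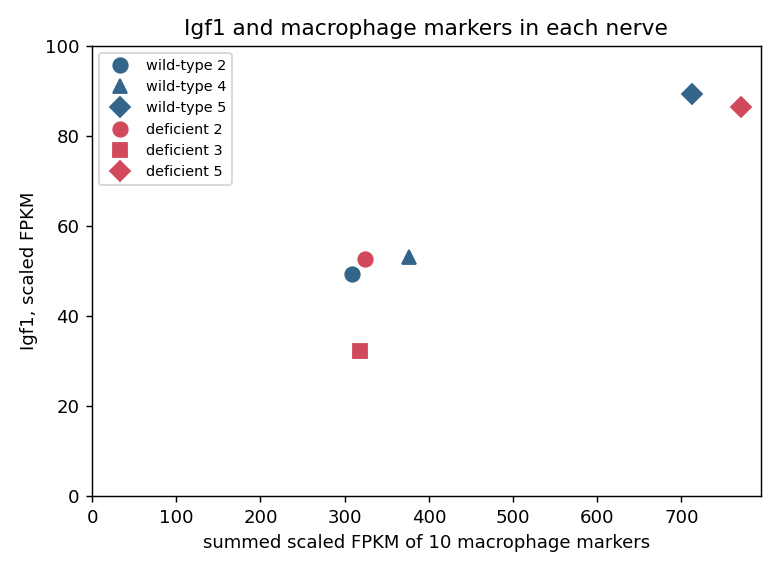
Scaled FPKM of Igf1 against the summed scaled FPKM of 10 macrophage markers, 1 symbol per nerve, blue for wild-type and red for Plekhg5-deficient. Both nerves numbered 5 lie at the upper right, at 89.4 and 86.5 FPKM of Igf1, and the other 4 nerves lie between 32.4 and 53.2 FPKM.

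Igf2, the fetal growth factor of the imprinted cluster on chromosome 7 (142650766 to 142666816, minus strand), showed 22.5, 28.7 and 26.8 FPKM in the wild type, with 17.5, 15.0 and 24.8 FPKM in the mutant. The wild-type nerves lay close together (26.0 ± 3.18, SD, n = 3), and of the Plekhg5-deficient nerves (19.1 ± 5.10, SD, n = 3) number 5 reached into their range. The log2 difference was -0.45 (95% interval -0.99 to 0.089, unadjusted p = 0.0886, adjusted p = 0.974 from limma). Without Plekhg5-deficient nerve 5 the groups no longer overlapped, as for 12.6% of all genes on the lower side, and the log2 difference was -0.65 (adjusted p = 0.697 from limma). Without Plekhg5-deficient nerve 3 it was -0.30. H19, the non-coding RNA imprinted in the opposite sense beside Igf2, gave 30.1, 28.4 and 29.7 FPKM for wild-type animals, compared with 9.71, 8.43 and 62.8 FPKM for mutants. As with Igf2, nerves 2 and 3 of the mutant were below and nerve 5 was not, but for H19 nerve 5 was above all others (log2 difference -0.71, 95% interval -2.39 to 0.98, adjusted p = 0.974 from limma). H19 is named here after its values were seen. Igf1 exceeded Igf2 in every nerve, by 1.85-fold (wild-type nerve 4) to 3.49-fold (Plekhg5-deficient nerve 5), and the ratio overlapped between genotypes (2.46 ± 0.777 and 2.89 ± 0.671, SD, n = 3).

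The signalling receptor Igf1r (chromosome 7, 67952859 to 68226780, plus strand) had 1.29, 1.84 and 2.94 FPKM in wild-type samples and 2.38, 1.42 and 0.955 in mutant samples. The highest value was in wild-type nerve 5 and the lowest in Plekhg5-deficient nerve 5, and the values of the genotypes interleaved (log2 difference -0.23, 95% interval -0.93 to 0.48, adjusted p = 0.980 from limma). The sign turned when both libraries numbered 5 were left out (0.16). The clearance receptor Igf2r (chromosome 17, 12682406 to 12769664, minus strand) showed 1.86, 1.46 and 2.14 FPKM in the wild type, with 1.24, 0.755 and 2.52 FPKM in the mutant. Plekhg5-deficient nerves were both the highest and the lowest here, a 3.34-fold spread (log2 difference -0.23, 95% interval -0.91 to 0.46, adjusted p = 0.980 from limma). Igf2r was measured poorly: the half-width of its Cufflinks interval was 37.4% to 69.8% of the value, against 2.23% to 2.97% for Igfbp6. The imprinted non-coding RNA Airn overlaps Igf2r over 28354 bases on the opposite strand of chromosome 17 and was at 4.68 to 9.34 FPKM, above Igf2r in every library. The strand setting of the quantification is not given, so it is not known whether reads of Airn were kept apart from those of Igf2r in the shared stretch. The ratio of Igf1r to Igf2r ran from 0.379 to 1.92 with no separation of the genotypes.

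Igfbp2, a binding protein that prefers Igf2 and is abundant in fetal tissue, lies on chromosome 1 from 72824503 to 72852474 (GRCm38, plus strand, the promoter printed first above). It had 1.89, 1.52 and 2.30 FPKM in nerves 2, 4 and 5 of wild-type animals, and 0.623, 1.005 and 0.220 FPKM in nerves 2, 3 and 5 of mutants. All wild-type nerves were above all Plekhg5-deficient nerves, and Plekhg5-deficient nerve 5 was the lowest. The means were 1.90 ± 0.391 FPKM in the wild type and 0.616 ± 0.392 FPKM in the mutant (SD, n = 3), a 3.09-fold difference. The log2 difference was -0.87 (95% interval -1.41 to -0.32, unadjusted p = 0.00772), which ranked 220 among the 21285 genes by p and did not pass over all genes (adjusted p = 0.739 from limma). Without Plekhg5-deficient nerve 5 the log2 difference was -0.70, and with both libraries numbered 5 left out it was -0.61. With a pseudocount of 0.1 in place of 1 it was -1.64. The groups did not overlap with the FPKM as deposited or with upper quartile scaling either. At this level the measurement itself was imprecise, with a half-width of the Cufflinks interval of 28.1% to 131% of the value. In FPKM as deposited, the lower interval bound of wild-type nerve 4 was 1.04, and the upper bound of Plekhg5-deficient nerve 3 was 1.53, so the intervals of single libraries did overlap, and the interval of Plekhg5-deficient nerve 5 included 0.

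**Figure D4:**
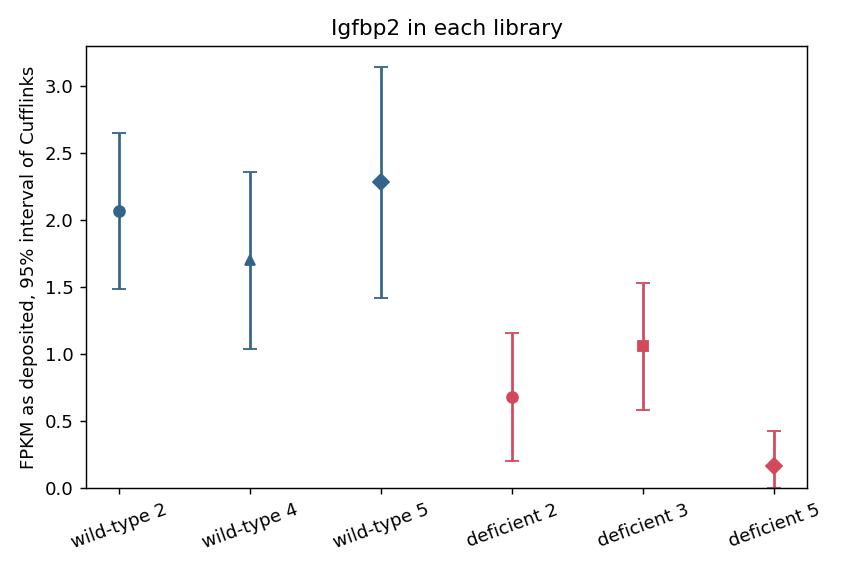
Igfbp2 as deposited (FPKM before scaling) in each library with the 95% interval reported by Cufflinks, wild-type in blue and Plekhg5-deficient in red. The 3 wild-type values lie between 1.70 and 2.28 and the 3 Plekhg5-deficient values between 0.164 and 1.06, and the intervals of wild-type nerve 4 and Plekhg5-deficient nerve 3 overlap.

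Of 9510 other genes averaging 5 FPKM or more, the 4 whose course over the 6 libraries was closest to that of Igfbp2 were Ddah2, Mdk, Lbh and Lphn1. The root mean square difference of their centred log2(FPKM + 1) values from those of Igfbp2 was 0.142, 0.147, 0.153 and 0.159. The added 1 compresses the course of Igfbp2 (0.220 to 2.30 FPKM) more than that of these genes. Closeness on this scale is therefore not closeness in fold change. The value of Igfbp2 in Plekhg5-deficient nerve 5 also has a Cufflinks interval that includes 0. Mdk encodes midkine, a heparin-binding growth factor, and had 13.4, 16.6 and 18.3 FPKM in the wild type, against 9.29, 11.5 and 6.60 FPKM in the mutant. Ddah2 was at 26.6, 22.6 and 30.7 against 17.2, 22.7 and 13.2 FPKM. Lbh, a transcription cofactor, was at 26.6, 23.2 and 23.8 against 16.1, 17.9 and 11.2 FPKM. Lphn1, an adhesion receptor, was at 7.81, 4.47 and 7.61 against 3.46, 4.95 and 2.35 FPKM. For Mdk, Ddah2, Lbh and Lphn1, as for Igfbp2, the lowest value was in Plekhg5-deficient nerve 5, and all 4 missed the threshold (adjusted p from 0.837 to 0.972, limma). They were picked for their likeness to Igfbp2, so their differences are not independent of its own.

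Igfbp3 (chromosome 11, 7206086 to 7213923, minus strand), the main carrier of the ligands in serum, gave 6.71, 7.39 and 16.96 FPKM for wild-type animals, compared with 11.8, 7.70 and 13.2 FPKM for mutants. It was the only gene of the system with a log2 difference above 0 (0.15, 95% interval -0.75 to 1.04, adjusted p = 0.990 from limma), and its sign turned with the FPKM as deposited (-0.0060). Wild-type nerve 5 was 2.53-fold above wild-type nerve 2, more than the distance between the genotype means (10.4 ± 5.73 and 10.9 ± 2.83, SD, n = 3).

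Igfbp4 (chromosome 11, 99041244 to 99054392, plus strand), which restrains Igf1 until it is cut by the protease Pappa, had 163.7, 179.1 and 230.9 FPKM in wild-type samples and 137.9, 104.6 and 173.9 in mutant samples. The mean was 1.38-fold higher in wild-type nerves (191 ± 35.2 and 139 ± 34.7, SD, n = 3), with Plekhg5-deficient nerve 5 inside their range (log2 difference -0.47, 95% interval -1.08 to 0.13, adjusted p = 0.974 from limma). Without Plekhg5-deficient nerve 3 it was -0.29. Igfbp6 (chromosome 15, 102144362 to 102149511, plus strand), which binds Igf2 far more tightly than Igf1, showed 293.1, 343.6 and 531.5 FPKM in the wild type, with 245.7, 234.1 and 297.9 FPKM in the mutant. The genotypes overlapped narrowly, since mutant nerve 5 was just above wild-type nerve 2, and wild-type nerve 5 stood far above the rest. Group means were 389 ± 126 and 259 ± 34.0 FPKM (SD, n = 3, log2 difference -0.55, 95% interval -1.21 to 0.12, adjusted p = 0.974 from limma), and without wild-type nerve 5 the log2 difference was -0.31.

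Igfbp5 (chromosome 1, 72857932 to 72874884, minus strand), which binds extracellular matrix, gave 199.6, 260.0 and 280.0 FPKM for wild-type animals, compared with 240.3, 191.6 and 191.2 FPKM for mutants. Plekhg5-deficient nerve 2 lay among the wild-type values (log2 difference -0.24, 95% interval -0.76 to 0.28, adjusted p = 0.974 from limma). Igfbp5 exceeded its neighbour Igfbp2 by 106-fold to 171-fold in wild-type nerves and by 386-fold and 191-fold in Plekhg5-deficient nerves 2 and 3. In Plekhg5-deficient nerve 5, where the interval of Igfbp2 includes 0, no ratio is given. Igfbp7 (chromosome 5, 77349240 to 77408045, minus strand), a vascular matrix protein that binds the ligands weakly, had 245.6, 329.4 and 335.5 FPKM in wild-type samples and 284.4, 212.1 and 302.4 in mutant samples. Its values interleaved between the genotypes (log2 difference -0.19, 95% interval -0.76 to 0.38, adjusted p = 0.980 from limma). The end of Igfbp7 overlaps that of Polr2b (11.2 to 16.1 FPKM) by 85 bases on the opposite strand, little against its own level.

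Summed over the 6 binding proteins, the wild-type samples held 910.6, 1121 and 1397 FPKM and the mutant samples 920.7, 751.0 and 978.8 FPKM. Wild-type nerve 2 lay below Plekhg5-deficient nerves 2 and 5, so the sums overlapped (1143 ± 244 and 883.5 ± 118 FPKM, SD, n = 3). Igfbp4 to Igfbp7 together gave 98.6% to 99.2% of the sum in every library. Igfbp6 gave 26.7% to 38.0%, Igfbp7 24.0% to 30.9%, Igfbp5 19.5% to 26.1% and Igfbp4 13.9% to 18.0%, while Igfbp3 gave 0.659% to 1.34%. The share of Igfbp2 was 0.136% to 0.207% in the wild type and 0.0225% to 0.134% in the mutant. The lowest share was that of Plekhg5-deficient nerve 5, where the interval of Igfbp2 includes 0. The shares did not overlap, but wild-type nerve 4 (0.1355%) and Plekhg5-deficient nerve 3 (0.1338%) nearly met. The half-widths of the Cufflinks intervals of Igfbp2 in these 2 nerves were 38.9% and 44.7% of the value. Binding protein transcripts exceeded ligand transcripts by 12.7-fold, 13.7-fold and 12.03-fold in wild-type nerves and by 13.1-fold, 15.9-fold and 8.80-fold in Plekhg5-deficient nerves. The means were close (12.8 ± 0.839 and 12.6 ± 3.57, SD, n = 3), and the spread was wider in the mutant, with nerves 3 and 5 at its ends.

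**Figure D5:**
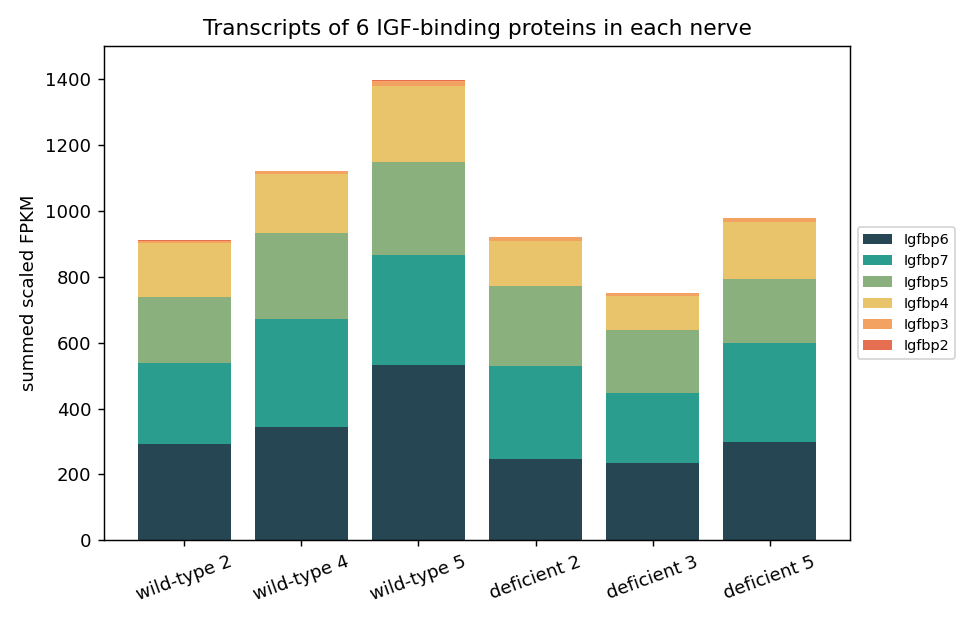
Summed scaled FPKM of the 6 IGF-binding proteins in each nerve, stacked by gene, with 1 bar per library. The bars run from 751.0 (Plekhg5-deficient nerve 3) to 1397 FPKM (wild-type nerve 5), and Igfbp6, Igfbp7, Igfbp5 and Igfbp4 fill nearly all of each.

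Levels of cell type markers are given beside those of the binding proteins. For fibroblasts, over 13 of 13 markers, led by Dcn and Ly6a, the summed level was 3075 to 4585 FPKM in wild-type and 2932 to 3358 FPKM in Plekhg5-deficient nerves, no marker was at 0 in any library, and wild-type nerve 5 was the highest and Plekhg5-deficient nerve 3 the lowest, as for the binding protein sum. Dcn alone gave 52.4% to 64.9% of the fibroblast sum, and taken singly 4 of the 13 were highest and lowest in these libraries. The same held for 6 of 11 endothelial, 3 of 10 macrophage, 2 of 8 perineurial and 2 of 9 smooth muscle and pericyte markers. It held for 0 of the Schwann cell and 0 of the adipocyte markers. Highest in both libraries numbered 5 were 5 of 13 fibroblast markers, Ly6a among them, and 6 of 11 endothelial markers. Of the 13 fibroblast markers, 10 had a log2 difference below 0 (median -0.27), and 1 was lower at an unadjusted p under 0.05. Also below 0 were 7 of 8 perineurial, 7 of 11 endothelial and 6 of 9 smooth muscle and pericyte markers. The count was 6 of 8 for adipocytes and 5 of 12 for Schwann cells. It was 7 of 10 for macrophages, 10 of 10 for T and B lymphocytes, 10 of 13 for skeletal muscle and 0 of 7 for erythroid cells. Of all genes, 48.9% were below 0, and 5.11% were at an unadjusted p under 0.05 in either direction. The 8 perineurial markers, led by Slc2a1 and Lypd2, had summed levels of 319.7 to 433.6 and 269.1 to 334.9 FPKM, and 2 were lower at an unadjusted p under 0.05. The 9 smooth muscle and pericyte markers, led by Acta2 and Tagln, ranged from 437.7 to 1880 and from 475.7 to 1052 FPKM. The 11 endothelial markers, led by Vwf and Pecam1, ranged from 172.4 to 284.4 and from 137.7 to 367.3 FPKM, and the 8 adipocyte markers, led by Fabp4 and Cfd, from 2489 to 3176 and from 943.9 to 6813 FPKM. Of the adipocyte markers, 1 was lower at an unadjusted p under 0.05. Of the Schwann cell markers, Pmp22 ranged from 4252.6 to 8401.4 and from 5232.1 to 9389.1 FPKM, and 2 of the list were higher at an unadjusted p under 0.05. The part of these cell types in the levels of the binding proteins was not tested.

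The wider pathway was read from 8 lists of 83 symbols, of which 72 were tested. None of the 72 passed over all genes (adjusted p of at least 0.785, limma). At an unadjusted p under 0.05, 5 were below the wild type (Igfals, Irs3, Pik3r2, Socs1 and Wisp2) and 0 above it, against 5.11% of all genes in either direction, and the median log2 difference of the 72 was -0.055. The same 5 were lower without overlap between genotypes, against 5.88% of all genes, and 1 was higher without overlap, against 5.69%. This was Foxo1, a transcription factor inhibited by Akt and named here after its values were seen, with 13.7, 18.76 and 17.4 FPKM in the wild type and 28.8, 18.80 and 24.9 FPKM in the mutant (unadjusted p = 0.0558, limma). Among 8 regulators of binding proteins, the proteases Htra1 and Htra3 were the most abundant. Htra3 had 41.3, 43.4 and 58.4 FPKM in the wild type, against 26.6, 18.0 and 45.1 FPKM in the mutant (unadjusted p = 0.0697, limma), and Htra1 was at 44.0, 42.0 and 45.7 against 38.4, 45.8 and 25.6 FPKM. Igfals, which holds the ligands in the ternary complex of serum, had 2.89, 7.84 and 1.94 FPKM in the wild type, against 1.84, 0.636 and 1.21 FPKM in the mutant (unadjusted p = 0.0431, adjusted p = 0.972, limma), with wild-type nerve 4 far above the other 5 libraries.

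Of 11 receptor substrates and adaptors tested, Gab1 and Grb14 were the most abundant, with log2 differences of -0.055 and -0.073. Irs3, an insulin receptor substrate of rodent adipocytes, had 4.93, 8.05 and 4.99 FPKM in the wild type, against 3.69, 2.19 and 2.43 FPKM in the mutant, with no overlap (log2 difference -0.88, unadjusted p = 0.0129, adjusted p = 0.798, limma). Of 21 genes of the PI3K, Akt and mTOR arm, 11 were below 0 and 10 above. Akt1 and Pik3r1 led in level, with log2 differences of -0.22 and -0.041, and Pik3r2, a regulatory subunit of PI3-kinase, was at 9.01, 11.6 and 11.0 against 7.57, 7.81 and 5.91 FPKM (unadjusted p = 0.0325, adjusted p = 0.958, limma).

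Of 8 genes of the growth hormone axis, which drives Igf1 in many tissues, Ghr, the receptor, had 48.5, 70.5 and 46.02 FPKM in the wild type, against 45.0, 23.6 and 78.3 FPKM in the mutant, and Stat5b, its signal transducer, had a log2 difference of -0.20. Ghr, like Igf1 and the summed adipocyte markers, was lowest in Plekhg5-deficient nerve 3. In wild-type nerve 5, where Igf1 was at its highest (89.4 FPKM), Ghr was the lowest of the wild type, though close to wild-type nerve 2. In Plekhg5-deficient nerve 5, where Igf1 was at 86.5 FPKM, Ghr was the highest of all. The relation of Ghr to Igf1 was not tested. Socs1, a feedback inhibitor of cytokine receptors, was at 4.93, 1.38 and 4.78 against 1.20, 0.745 and 0.655 FPKM (log2 difference -1.23, unadjusted p = 0.0161, adjusted p = 0.850, limma). Of 3 insulin and receptor genes tested, Insr was at 2.53 to 6.56 FPKM and Insrr at 0.250 or less. Of 11 imprinted growth genes tested, 6 were below 0 and 5 above, with Meg3 and Ndn the most abundant (log2 differences 0.41 and -0.29). Of 2 Igf2 mRNA-binding proteins tested, Igf2bp2 had a log2 difference of 0.32 and Igf2bp1 of 0.0013. Igfbp1, the binding protein released by liver, was below the limit for testing. Of 8 tested genes for proteins with an IGFBP domain outside the family, the matricellular proteins Nov and Cyr61 were the most abundant (log2 differences -0.25 and 0.14). Wisp2, of the same group of matricellular proteins, was at 1.61, 1.15 and 2.49 against 0.394, 0.327 and 0.888 FPKM, with no overlap (log2 difference -0.83, unadjusted p = 0.0118, adjusted p = 0.785, limma).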

How the data were processed

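Sciatic nerve RNA of 3 wild-type and 3 Plekhg5-deficient mice was made into libraries with a poly(A) RNA kit. Trimming used Trim Galore 0.4.0 and mapping to GRCm38 used STAR. The reads were quantified by the authors with Cufflinks 2.2.1, whose deposited FPKM values, with 95% intervals, are the unit used here, 1 table per library with no counts. Annotation release, strand setting and depth are not stated there. For 19 duplicated identifiers the values were added up.

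Of 39174 genes, the 21285 averaging 0.1 FPKM or more in a genotype before scaling were tested. Each library was scaled by its median of ratios (factor 0.745 for Plekhg5-deficient nerve 5 and 0.991 to 1.12 for the others). A linear model of log2(FPKM + 1) on genotype, with moderated and trended variances, was fitted (limma 3.58.1, R 4.3.3), and p-values were adjusted by Benjamini-Hochberg. Calls were made at an adjusted p under 0.05. The procedure was tested on simulated data. The 3 replicates per genotype are animals by the study's methods.

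The 10 genes and the lists were chosen with earlier results of these data known. Named genes are the 10, Plekhg5, the 2 of highest mean FPKM in each list, pathway genes at an unadjusted p under 0.05, and the 4 genes closest to the member of smallest p. A gene that the rule names is not reported here. Promoters are from RefSeq (GRCm38.p6). Alternatives were other pseudocounts, filters, scalings and variance settings, a replicate block, and leaving out libraries.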

Additional observations from a re-analysis of the deposited data

How the results depend on the processing

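Under 17 alternatives, 0 of the 10 genes passed over all genes, and Igfbp2, Igf2, Igf2r, Igfbp4, Igfbp5 and Igfbp6 kept a log2 difference below 0. That of Igfbp2 lay between -1.64 and -0.61 (unadjusted p from 0.00307 to 0.0313, adjusted p from 0.210 to 1, limma). Reversed signs were those of Igfbp3 with FPKM as deposited (-0.0060) and without wild-type nerves 2 (-0.071) or 4 (-0.020), of Igf1 without wild-type nerve 5 (0.037) or Plekhg5-deficient nerve 3 (0.13), and of Igf1r with array weights (0.15) or with both libraries numbered 5 left out (0.16). With the replicate block over the shared numbers 2 and 5, Igf1 (0.024) and Igfbp7 (0.031) also changed sign and 0 genes in all were called. Leaving out 1 library moved Igf1 between -0.57 and 0.13 and Igfbp3 between -0.071 and 0.52. The cause of these reversals was not tested. The samples share only a number: deviations from the genotype means correlated at 0.073 for the libraries numbered 2 and 0.58 for those numbered 5. Pairs with unlike numbers ran from -0.52 (wild-type nerve 4, Plekhg5-deficient nerve 5) to 0.46 (wild-type nerve 4, Plekhg5-deficient nerve 2). Over all genes, 8 were called, 2 without a filter, 22 with array weights and 0 to 5 when 1 library was left out (0 without wild-type nerve 2 or 4). Genes of the system without overlap numbered 1, 4 with FPKM as deposited and 1 to 6 when 1 library was left out (6 without wild-type nerve 2, 5 without Plekhg5-deficient nerve 5, 2 without wild-type nerve 5, with Igfbp3 higher in the mutant, or Plekhg5-deficient nerve 2) and 6 with both libraries numbered 5 left out. Of all genes, 11.6% did not overlap in either direction, 11.1% with FPKM as deposited, 18.4% to 24.3% when 1 library was left out and 36.2% without both libraries numbered 5. Precision is limited by 3 animals a group and, for Igfbp2 and Igf2r, by wide Cufflinks intervals.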
